A study of Mus musculus with 15 samples.

Results

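MiRNA counts from the left ventricle (LV) were compared between 5 AGAT-/- mice and 5 wild-type (wt) mice, which gave 10 of the 15 libraries of the series. The libraries were chosen by their labels, namely the genotype and the absence of a supplement, and all 10 were run on lane 8. AGAT-/- mice lack L-arginine:glycine amidinotransferase because of a targeted, body-wide deletion, and wt mice were their littermates from heterozygous breeding on a C57BL/6J background. Neither group received a treatment, each library came from 1 mouse, and age and sex are not given in the sources used here. The other 5 libraries came from AGAT-/- mice given homoarginine by osmotic mini pump for 4 weeks (AGAT-/-hArg) and were run on lane 2. They entered no test and are given only as values.

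AGAT is the enzyme that forms homoarginine and guanidinoacetate, the precursor of creatine, so that mice without it lack both metabolites. Creatine carries high-energy phosphate in heart muscle, and homoarginine is a cationic amino acid related to arginine. A miRNA is cut from a hairpin precursor as a short duplex, of which a 5p and a 3p strand can be recovered, and the retained strand guides repression of mRNAs that pair with its seed, the bases 2 to 8 from the 5′ end.

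Of the 562 miRNAs that could be tested, 12 (2.14%) distinguished AGAT-/- from wt mice at a false discovery rate (FDR) of at most 0.05, 9 of them higher (1.6%) and 3 lower (0.534%) in AGAT-/- mice. Those lower were mir-215-5p, mir-1983-3p and mir-5119-3p. Mir-470-5p, both strands of mir-871 and mir-881-3p, which lie together on chromosome X, were higher. The other 5 that were higher, mir-31-5p, mir-298-5p, mir-1966-3p, mir-130a-5p and mir-7688-5p, lie apart from one another.

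The mature sequences of these 12 miRNAs are shown first, since the seed decides which mRNAs a miRNA can pair with and since the strand names below refer to them. They were taken from RefSeq on GRCm38.p6 and are written 5′ to 3′ with the seed in capitals. For mir-5119 and mir-1983, RefSeq names 1 mature miRNA without an arm, and it was assigned to the 3p row from its place in the hairpin. The miRNAs that were lower in AGAT-/- mice read as follows.
mir-5119-3p: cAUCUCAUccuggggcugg
mir-215-5p: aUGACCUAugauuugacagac
mir-1983-3p: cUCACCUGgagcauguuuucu

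The miRNAs of chromosome X that were higher in AGAT-/- mice read as follows, and both strands of mir-871 are included because each of them differed.
mir-470-5p: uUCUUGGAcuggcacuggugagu
mir-871-5p: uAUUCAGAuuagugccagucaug
mir-871-3p: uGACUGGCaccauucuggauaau
mir-881-3p: aACUGUGUcuuuucugaauaga

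The remaining miRNAs that were higher read as follows.
mir-298-5p: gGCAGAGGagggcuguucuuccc
mir-31-5p: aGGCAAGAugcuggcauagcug
mir-130a-5p: gCUCUUUUcacauugugcuacu
mir-7688-5p: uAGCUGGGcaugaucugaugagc
mir-1966-3p: uUUCUGACucaacucucccuuag

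No 2 of these 12 share a seed. Mir-215-5p has the seed of mir-192-5p (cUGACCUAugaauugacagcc), mir-1983-3p that of mir-412-3p and mir-1966-3p that of mir-7006-3p, while the other 9 share their seed with no other matched row. None of these 3 seed partners had enough reads to be tested, and mir-192-5p was listed at 0 in all 10 libraries.

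The deposited counts list both arms of 918 precursors as 1836 rows, of which 742 were at 0 in the 10 libraries and 532 held between 1 and 10 reads in all. Wt libraries totalled 415608 to 486204 reads and AGAT-/- libraries 365634 to 557398. Mir-378a-3p, mir-378c-5p and mir-378d-5p took between 71.9% and 74.8% of the reads. By library total, 3 reads of any miRNA are worth 5.38 to 8.20 CPM (counts divided by the size of the library). For the values of the tested miRNAs in each mouse, the size of the library was also scaled by TMM. Values after ± are the SD over the 5 mice of a group (n = 5) throughout. Many rows at 0 are strands known to be abundant in heart: mir-1a-1-3p, mir-1a-2-3p, mir-133a-1-3p, mir-133a-2-3p, mir-208a-3p and mir-208b-3p had no read, whereas mir-499-5p, a miRNA of the myosin gene Myh7b, and mir-133a-1-5p were read in all 10 libraries. Of 29 miRNAs examined here that the study lists as regulated between these groups, 11 were also at 0 in the 10 libraries. The counts used therefore lack reads that the study had for some strands, and which other rows this affects is not known. A row at 0 is thus not read as absence of the miRNA, and statements on which strand of a precursor passed cover these counts only. The LV origin was therefore checked only by mir-499 and by the 5p rows of the other muscle miRNAs. Gatm, the gene of AGAT, gives no miRNA, so its loss was not measured here. In bulk tissue, fewer cells of a type and less RNA per cell cannot be told apart.

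**Figure D1:**
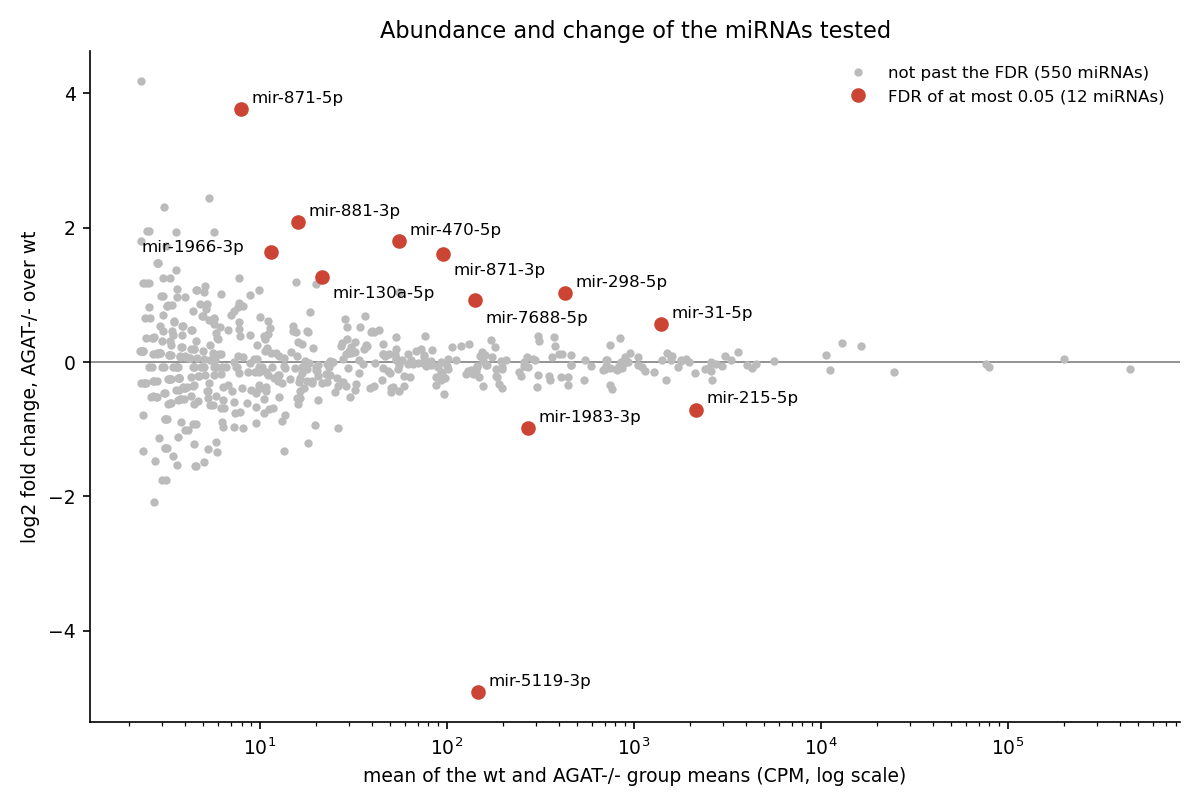
Mean abundance (mean of both group means in CPM, log scale) and log2 fold change of AGAT-/- over wt mice for the 562 miRNAs tested, 1 point each. Red points are the 12 past the FDR; the grey points spread widely at low abundance and narrow to the right, and mir-5119-3p lies alone at -4.91.

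The plot of abundance and change shows how the calls relate to depth. Among the 334 miRNAs with a mean of at most 10 reads per library, the median size of the log2 fold change was 0.41 and 4 passed the FDR. With a mean above 10 and at most 100 reads, the median size was 0.17 and 4 of 136 passed. Another 4 of 69 passed with a mean above 100 and at most 1000 reads, where the median size was 0.11. Of the 23 miRNAs above 1000 reads, with a median size of 0.09, none passed in edgeR's test, 4 had an unadjusted p below 0.05, and DESeq2 and limma-voom called 1 of them, mir-125b-2-3p. The median log2 fold change of all tested miRNAs was -0.04, and 60 (10.7%) had an unadjusted p below 0.05. Apart from the FDR, the 5 mice of a group all lay on the same side of the 5 of the other group for 17 miRNAs (3.02%), of which 13 were higher and 4 lower in AGAT-/- mice and 10 also passed the FDR.

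**Figure D2:**
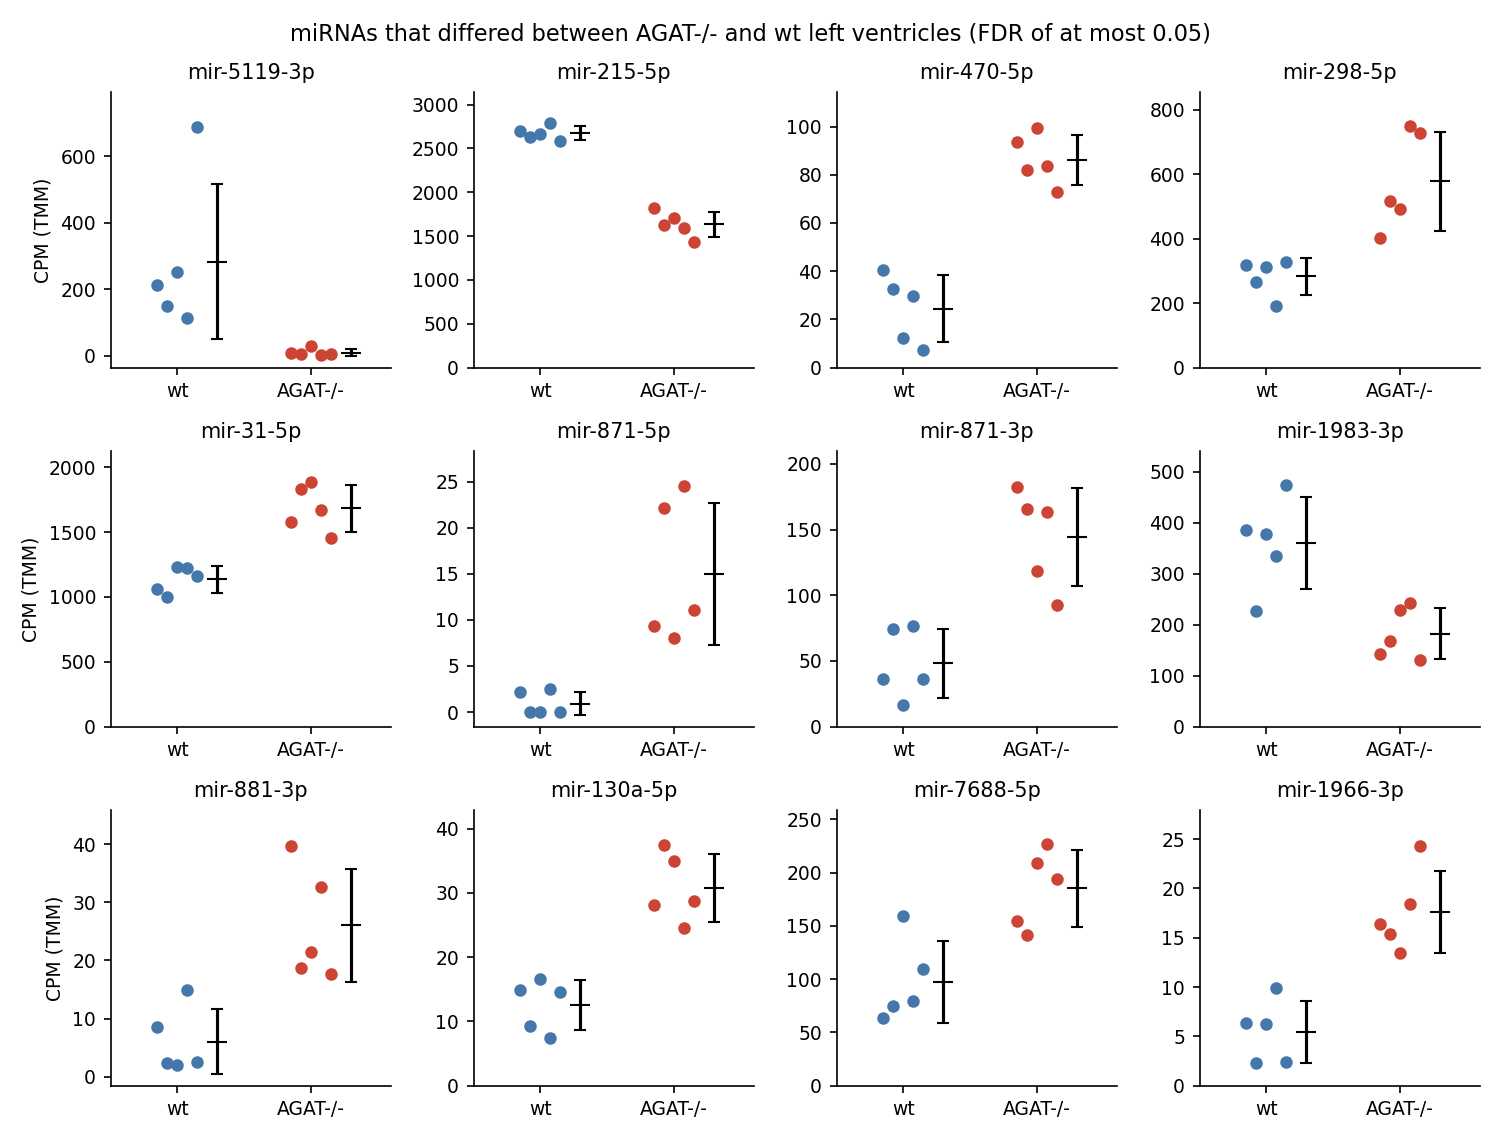
CPM of each of the 12 miRNAs past the FDR, with 1 point per mouse (blue wt, red AGAT-/-) and the mean ± SD of each group beside the points (n = 5 each). The groups are separate in 10 panels and overlap for mir-1983-3p and mir-7688-5p.

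Mir-5119-3p showed the lowest values in AGAT-/- mice relative to wt. Its locus, chr11:98262638-98262656 on the plus strand, lies in an intron of Cdk12, which encodes a transcriptional kinase. It was at 212, 151, 253, 114 and 686 CPM in wt mice 1 to 5. AGAT-/- mice 6 to 10 had 9.36, 5.12, 29.5, 2.04 and 4.42 CPM. The groups did not overlap, and the lowest wt mouse (46 reads) stood well above the highest AGAT-/- mouse (11 reads). Group means were 283 ± 231 and 10.1 ± 11.2 CPM, and the log2 fold change was -4.91 (standard error, SE, 0.56; FDR = 2.08e-05, edgeR's quasi-likelihood test). It was -4.24 without wt mouse 5 and -5.71 without AGAT-/- mouse 8, the mice with the highest values of their groups. The 5p row of the same precursor was at 0 in all 10 libraries.

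Mir-215-5p differed with the smallest spread within groups. Its gene lies at chr1:185313610-185313630 on the plus strand, in an exon of the antisense transcript 2010103J01Rik and opposite an intron of Iars2, and with mir-192 and mir-194 it belongs to miRNAs known from gut, liver and kidney. Wt mice 1 to 5 had 2696, 2624, 2661, 2789 and 2579 CPM. AGAT-/- mice 6 to 10 had 1818, 1630, 1705, 1589 and 1436 CPM. All AGAT-/- mice therefore lay below all wt mice, at 1636 ± 141 CPM against 2670 ± 79.7 CPM. The log2 fold change was -0.71 (SE 0.08, FDR = 2.08e-05, edgeR), or 0.613 of the wt level, on between 635 and 1285 reads per library. Its 3p strand held 43 reads in wt and 18 in AGAT-/- mice, at -1.32 on the log2 scale (SE 0.43, FDR = 0.167, edgeR). Mir-194-1-3p, from the same cluster, had 16 reads in all and a log2 fold change of -1.52 (SE 0.71, FDR = 0.434, edgeR). These 3 rows were the only ones of the 8 of mir-192, mir-194 and mir-215 with enough reads. Of them 1, mir-215-5p itself, passed the FDR, against 12 of all 562 miRNAs (2.14%).

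Mir-1983-3p was lower in AGAT-/- mice with an overlap between the groups. It stood at 386, 228, 377, 335 and 474 CPM in wt mice 1 to 5 and at 143, 169, 228, 243 and 130 CPM in AGAT-/- mice 6 to 10. Wt mouse 2 lay below AGAT-/- mice 8 and 9, and the other 4 wt mice lay above all AGAT-/- mice. The log2 fold change was -0.98 (SE 0.19, FDR = 0.00461, edgeR), from 360 ± 89.7 to 183 ± 50.6 CPM. It is placed at chr13:21896930-21896950 on the minus strand, in no other annotated gene, and no read fell on its 5p row. The hairpin holds the letters GUUCGANNC, as found in the T loop of transfer RNAs, on the strand of the hairpin. Of 1005 mouse hairpins in the RefSeq table, 5 hold these letters (0.498%), and reads of a transfer RNA with the same ends could not be told from reads of the miRNA.

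Among the miRNAs that were higher in AGAT-/- mice, 4 came from the testis-expressed, fast-evolving miRNA cluster of chromosome X. Within 60 kb of mir-871 the table holds 32 rows of 16 precursors, all on the minus strand and spanning 58.6 kb. Of these rows 15 had enough reads to be tested, and 4 passed the FDR in edgeR's test. As 11 of the 15 had at most 10 reads in wt mice and were tested only because of their AGAT-/- reads, no median is given over the 15. Mir-871-5p, among the 4 that passed, is included in these 11, with 2 reads in wt and 37 in AGAT-/- mice. The count of 4 therefore depends in part on the group in which the reads were high. Without any filter, the mean CPM was higher in AGAT-/- mice for 23 of the 32 rows and lower for 3, while 6 were at 0 in the 10 libraries. Over all 1836 rows it was higher for 576, lower for 518 and at 0 for 742. The window was set around mir-871, which was called in these data, and the 23 rows include the 4 past the FDR. Some of its mir-465 rows also have the same mature sequence. The count of 23 against 3 is therefore a description and no separate evidence. The 17 rows with too few reads held 12 reads in wt and 25 in AGAT-/- mice.

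**Figure D3:**
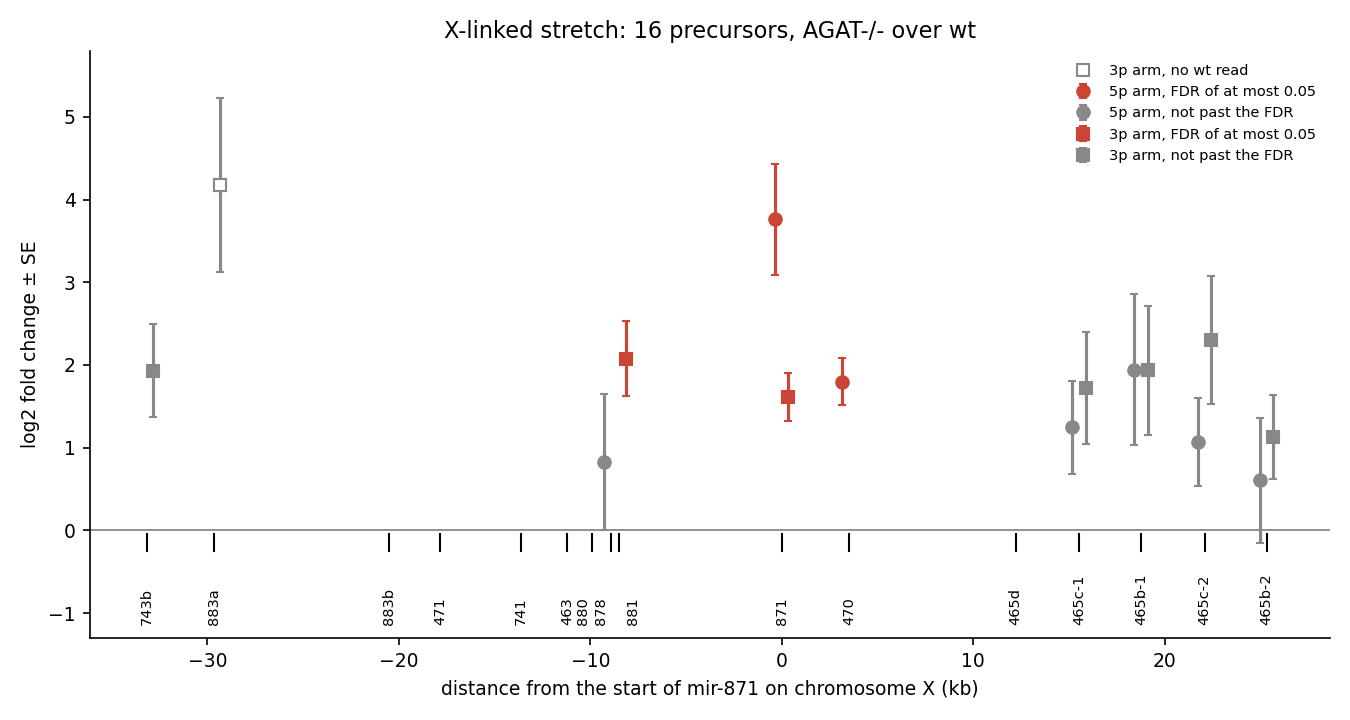
Log2 fold change of AGAT-/- over wt mice ± SE for the 15 tested rows of the X-linked stretch against the distance of the precursor from mir-871 in kb; ticks mark all 16 precursors, circles 5p and squares 3p rows, red those past the FDR. The 4 red points are both strands of mir-871, mir-470-5p and mir-881-3p, and 11 of the 15 rows had at most 10 wt reads; the open square is mir-883a-3p, which had no wt read, so that its fitted value depends on the model.

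Summed over the 32 rows, wt mice 1 to 5 had 66, 64, 21, 61 and 28 reads on the stretch. AGAT-/- mice 6 to 10 had 171, 230, 115, 206 and 115 reads. Scaled to the library total, as CPM, this was between 43.2 and 148 in wt and between 253 and 427 in AGAT-/- mice, so that the groups did not overlap. In all, 240 reads in wt stood against 837 in AGAT-/- mice. The stretch was set around mir-871, which was called in these data, and the sum includes the 4 rows past the FDR. Of these, mir-871-3p alone held 103 reads in wt and 341 in AGAT-/- mice. The lack of overlap in the sum is therefore a description and no separate evidence.

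Mir-470-5p (chrX:66813995-66814017, minus strand) had the lowest FDR of the stretch. It was at 40.3, 32.5, 12.4, 29.8 and 7.30 CPM in wt mice 1 to 5. In AGAT-/- mice 6 to 10 it was at 93.6, 81.8, 99.3, 83.8 and 72.9 CPM, above every wt mouse. The means of 24.5 ± 14.0 and 86.3 ± 10.4 CPM gave a log2 fold change of 1.80 (SE 0.28, FDR = 0.00097, edgeR), on between 3 and 48 reads per library. On its 3p row there was 1 read in AGAT-/- mice and none in wt.

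Both strands of mir-871 (hairpin at chrX:66810428-66810504, minus strand) were higher in AGAT-/- mice. The 3p strand was at 36.1, 74.3, 16.6, 77.0 and 36.5 CPM in wt mice and at 182, 165, 118, 163 and 92.8 CPM in AGAT-/- mice. These groups did not overlap, and the log2 fold change was 1.61 (SE 0.29, FDR = 0.00218, edgeR). Of mir-871-5p the wt mice had 1, 0, 0, 1 and 0 reads and the AGAT-/- mice 4, 13, 3, 12 and 5 reads, so that it was tested only because of its AGAT-/- reads. With 2 reads against 37 after scaling, the ratio was 17.5 with an exact 95% interval of 4.51 to 150 that covers counting error only (FDR = 0.00216, edgeR). Entering the labels' animal number as a covariate ended this call (FDR = 0.0876, edgeR), with a fitted log2 fold change of 3.40 against 3.76 without it.

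Mir-881-3p (chrX:66801954-66801975, minus strand) was at 8.49, 2.32, 2.07, 14.9 and 2.43 CPM in wt mice 1 to 5 and at 39.8, 18.8, 21.5, 32.7 and 17.7 CPM in AGAT-/- mice 6 to 10. Every AGAT-/- mouse exceeded every wt mouse, although the wt values rest on between 1 and 6 reads. The log2 fold change was 2.08 (SE 0.46, FDR = 0.0151, edgeR), and the FDR was 0.0653 without wt mouse 2.

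The 11 tested rows of the stretch that did not pass the FDR rested on between 11 and 46 reads each. Mir-883a-3p had no read in wt and 1, 2, 1, 4 and 3 reads in AGAT-/- mice, at least 3.46-fold higher against a floor of 3 reads over the wt group (FDR = 0.0524, edgeR). Mir-743b-3p averaged 9.16 ± 3.94 CPM in AGAT-/- against 2.26 ± 1.65 CPM in wt mice, a log2 fold change of 1.93 (FDR = 0.094, edgeR). The groups did not overlap for either of these miRNAs, nor for mir-465c-1-3p and mir-465c-2-3p, at FDRs of 0.337 and 0.190. Each of these rows had at most 2 reads in any wt mouse and was tested only because of its AGAT-/- reads. Their lack of overlap is therefore a description. Of all 562 miRNAs tested, 17 (3.02%) showed no overlap. Since mir-465b-1-3p, mir-465b-2-3p and mir-465c-1-3p have the same mature sequence, as do mir-465c-1-5p and mir-465c-2-5p, the split of their reads is uncertain.

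The list of X-linked testis miRNAs also holds rows not counted on the stretch, and none of these passed the FDR. Mir-201-5p, with 838 reads, had a log2 fold change of 0.23 (SE 0.14, FDR = 0.593, edgeR) and mir-547-3p, with 715 reads, of 0.07 (SE 0.15, FDR = 0.965, edgeR). Mir-201-3p had 26 reads and a log2 fold change of -1.19 (FDR = 0.422, edgeR). Mir-465a-3p (13 reads), mir-465a-5p (13) and mir-547-5p (17) were at 1.48, 0.125 and 1.09 on the log2 scale (FDRs of 0.560, 0.971 and 0.737, edgeR). Over the whole list 21 rows were tested and 4 passed the FDR, all of them on the stretch, against 12 of the 562 miRNAs. Of these 4, mir-871-5p was tested only because of its AGAT-/- reads.

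Outside the X-linked stretch, mir-298-5p was also higher in AGAT-/- mice. Mir-298 lies at chr2:174267504-174267585 on the minus strand near the imprinted Gnas locus and in no other annotated gene. Its 5p strand was at 318, 267, 313, 191 and 328 CPM in wt mice 1 to 5. In AGAT-/- mice 6 to 10 the values were 402, 518, 491, 750 and 729 CPM. There was no overlap, with the AGAT-/- values spread more widely (578 ± 153 CPM) than the wt values (284 ± 56.7 CPM). The log2 fold change was 1.03 (SE 0.17, FDR = 0.00165, edgeR), and adding the animal number as a covariate gave 0.62 (FDR = 0.212, edgeR). Its 3p row held 6 reads in AGAT-/- mice and none in wt. Mir-296, the neighbour of mir-298, had 1 read on its 5p row and none on its 3p row.

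Mir-31-5p, a miRNA studied in muscle and in cancer, comes from an exon of the long non-coding RNA AL805899.1 (chr4:88910614-88910635, minus strand). Wt mice 1 to 5 had 1063, 999, 1232, 1222 and 1163 CPM. AGAT-/- mice 6 to 10 had 1574, 1835, 1887, 1667 and 1451 CPM. All AGAT-/- mice lay above all wt mice, and the means of 1136 ± 102 and 1683 ± 181 CPM gave a log2 fold change of 0.57 (SE 0.10, FDR = 0.00168, edgeR). Adding the animal number as a covariate gave 0.52 (FDR = 0.0625, edgeR).

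Mir-130a (chr2:84741115-84741178, minus strand) carries on its 3p strand the seed of the mir-130 and mir-301 family, known from vascular cells. In these counts it was mir-130a-5p that passed, with 14.8, 9.29, 16.6, 7.45 and 14.6 CPM in wt mice against 28.1, 37.5, 34.9, 24.5 and 28.7 CPM in AGAT-/- mice. The groups did not overlap, and the log2 fold change was 1.26 (SE 0.29, FDR = 0.0216, edgeR) on between 3 and 22 reads per library. Mir-130a-3p (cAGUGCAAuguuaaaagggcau) averaged 45.8 ± 5.65 CPM in AGAT-/- against 27.8 ± 8.65 CPM in wt mice, at 0.69 (SE 0.23, FDR = 0.190, edgeR). The call of the 5p strand was lost without wt mouse 2 (FDR = 0.0778), wt mouse 4 (0.0522), AGAT-/- mouse 7 (0.0701) or AGAT-/- mouse 8 (0.0615, edgeR), and with the animal number as a covariate (0.171, at a log2 fold change of 1.29).

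Mir-7688-5p and mir-1966-3p had the highest FDRs of the 12. Mir-7688-5p (chr10:93433107-93433129, plus strand, in no other annotated gene) had 63.6, 74.3, 159, 79.5 and 109 CPM in the wt group against 154, 142, 209, 227 and 194 CPM in the AGAT-/- group. Wt mouse 3 lay within the AGAT-/- range, and the log2 fold change was 0.92 (SE 0.22, FDR = 0.0241, edgeR). Mir-1966-3p (chr8:105615521-105615543, plus strand) lies in an exon of Ripor1 and opposite an intron of Agrp. Its reads were 3, 1, 3, 4 and 1 in wt and 7, 9, 5, 9 and 11 in AGAT-/- mice, without overlap in CPM, and its log2 fold change was 1.64 (SE 0.40, FDR = 0.0291, edgeR). The FDR of mir-7688-5p was between 0.0599 and 0.0778 without wt mouse 1, 2 or 4 or AGAT-/- mouse 8 or 9, and that of mir-1966-3p was between 0.0504 and 0.0902 without wt mouse 1, 2, 3 or 5 or AGAT-/- mouse 9 or 10. With the animal number as a covariate the log2 fold changes were 0.59 and 1.43 and the FDRs 0.466 and 0.358 (edgeR). DESeq2 called mir-7688-5p but not mir-1966-3p, at a log2 fold change of 1.71 (FDR = 0.098).

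Whether both strands of a precursor moved by the same factor was asked for the 4 precursors with a strand past the FDR and both strands tested. The log2 ratio of 5p to 3p reads of mir-871 was -3.26 ± 0.61 in AGAT-/- against -4.60 ± 0.95 in wt mice, differing by 1.34 (p = 0.0397, two-sided exact permutation test; 0.0794 after Benjamini-Hochberg adjustment over the 4 precursors). For mir-130a the ratio was -0.57 ± 0.30 in AGAT-/- against -1.09 ± 0.33 in wt mice (exact permutation p = 0.0317, adjusted 0.0794). In mir-215 the difference was 0.72 (exact permutation p = 0.167, adjusted 0.222), and in mir-31 it was 0.06 (exact permutation p = 0.849, adjusted 0.849). None of the 4 passed the adjustment, and the smallest p that 5 against 5 mice can give is 0.00794. The 4 precursors were chosen because a strand of each was called in the same mice. That choice favours a difference between the strands, so these p-values are a description and cannot decide the question. The difference in mir-871 was 0.72 when 1 read instead of 0.5 was added to each strand. Of the other precursors with a miRNA past the FDR, the opposite strand had at most 6 reads in either group.

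**Figure D4:**
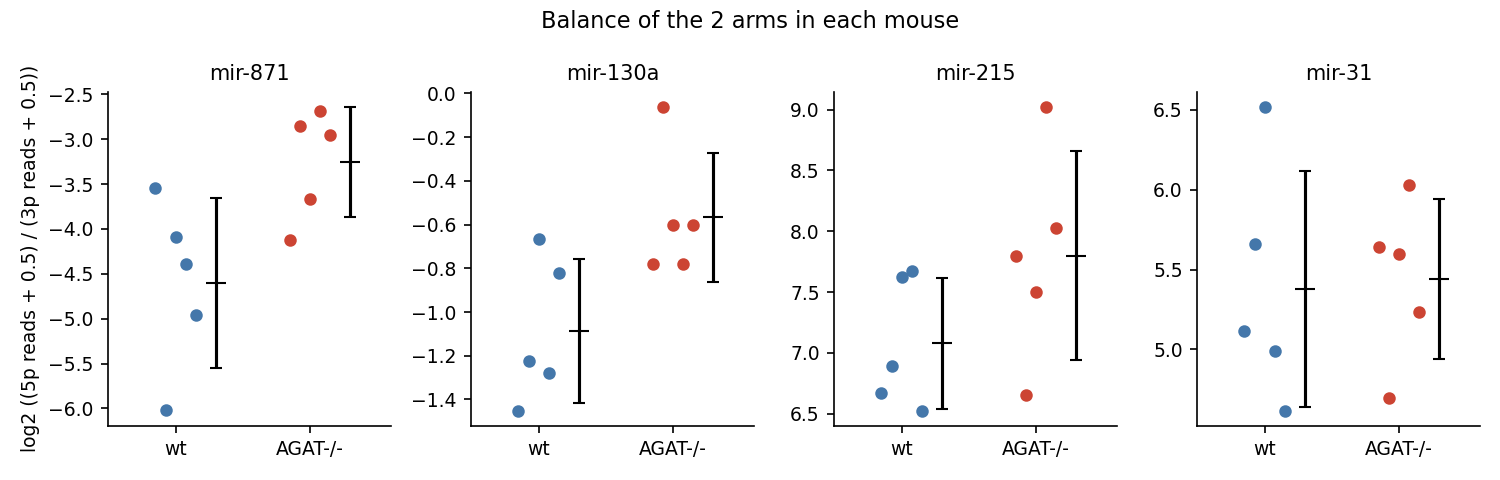
Log2 ratio of 5p to 3p reads (0.5 read added to each) in every mouse for the 4 precursors, with the mean ± SD beside the points (n = 5 each) and an axis of its own per panel. AGAT-/- mice (red) overlap wt mice (blue) in every panel.

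The 10 miRNAs next to the threshold included several that are far more abundant. Mir-125b-2-3p, from an intron of the non-coding gene Mir99ahg, had 10613, 12046, 11033, 13670 and 11676 CPM in the wt group against 14455, 13485, 14809, 14027 and 14695 CPM in the AGAT-/- group, so that 4 wt mice lay below all AGAT-/- mice. Its log2 fold change was 0.28 (SE 0.07, FDR = 0.0503, edgeR), and without the 3 most abundant miRNAs the FDR was 0.0242. Mir-499-5p, the heart muscle miRNA, averaged 951 ± 85.8 CPM in AGAT-/- against 739 ± 73.1 CPM in wt mice, a log2 fold change of 0.36 (SE 0.10, FDR = 0.0639, edgeR).

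Mir-210-5p, whose gene is induced by hypoxia, had 267, 255, 269, 266 and 268 CPM in the wt group against 332, 324, 405, 308 and 373 CPM in the AGAT-/- group. These groups did not overlap, and the log2 fold change was 0.39 (SE 0.11, FDR = 0.0757, edgeR); the 3p strand, the usual guide, was listed at 0. Mir-24-2-5p was at 15026 ± 1795 and 17798 ± 708 CPM in wt and AGAT-/- mice, at 0.24 (FDR = 0.138, edgeR). The values below wt were mir-193b-3p at -0.34 (FDR = 0.106), mir-666-3p at -1.20 (0.106) and mir-98-3p at -0.40 (0.190, edgeR), besides mir-215-3p.

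These borderline values depended on the fit. DESeq2 called mir-125b-2-3p (FDR = 0.00853), mir-499-5p (0.00957) and mir-210-5p (0.0315), and without AGAT-/- mouse 6 edgeR called them at 0.0193, 0.0208 and 0.0359. Mir-210-5p was called in 6 of the 11 alternative fits that kept all 10 mice, mir-499-5p in 8 and mir-125b-2-3p in 10. With the animal number as a covariate their log2 fold changes were 0.24, 0.35 and 0.35 and their FDRs 0.358, 0.358 and 0.429 (edgeR).

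**Figure D5:**
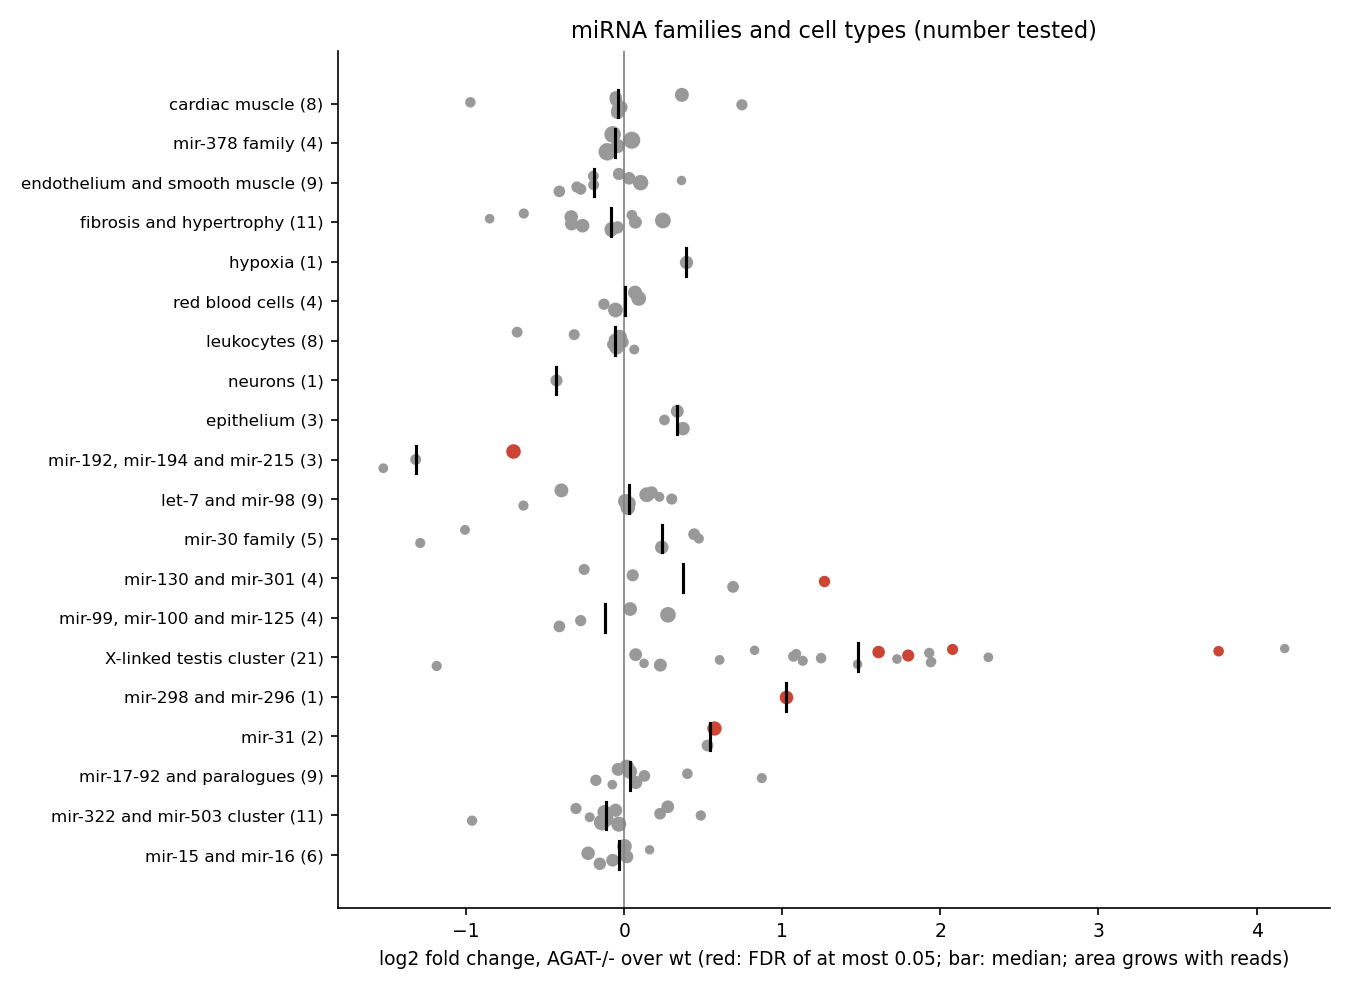
Log2 fold change of AGAT-/- over wt mice for the tested rows of each miRNA list, with the number tested in brackets, the median as a bar and a point area that grows with the reads. Red points, past the FDR, occur only in the lists of mir-215, mir-130a, the X-linked cluster, mir-298 and mir-31.

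Beyond these loci, the families known from heart and from its cell types were measured with few or no calls, as the plot by list shows. Of the cardiac muscle miRNAs, 8 rows were tested and none passed in edgeR's test, with a median log2 fold change of -0.04; DESeq2 and limma-voom called 1 of them, mir-499-5p. Mir-133a-1-5p was at 468 ± 52.8 and 454 ± 63.3 CPM in wt and AGAT-/- mice and mir-208a-5p at 103 ± 14.5 and 99.0 ± 21.5 CPM. Besides mir-499-5p, mir-1a-2-5p had an unadjusted p below 0.05, at a log2 fold change of 0.74 (SE 0.34, FDR = 0.434, edgeR). Mir-378a-3p, from the gene of a regulator of mitochondrial metabolism, averaged 435912 ± 16178 CPM in AGAT-/- against 469880 ± 36495 CPM in wt mice, a log2 fold change of -0.11 (SE 0.05, FDR = 0.434, edgeR).

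Among miRNAs of fibrosis and cardiac growth none of 11 rows passed in edgeR's test, DESeq2 or limma-voom, and 3 had an unadjusted p below 0.05. Mir-21a-5p, known from fibroblasts, averaged 169 ± 24.2 CPM in AGAT-/- against 212 ± 9.49 CPM in wt mice, a log2 fold change of -0.33 (SE 0.13, FDR = 0.314, edgeR). Mir-29a-3p, which targets collagen mRNAs, was at 498 ± 45.0 and 393 ± 75.5 CPM, at -0.34 (SE 0.13, FDR = 0.289, edgeR), and its FDR was 0.0429 without AGAT-/- mouse 7. The third was mir-24-2-5p, which edgeR called when libraries were scaled by total counts (FDR = 0.00571), when rows with at least 1 read were kept (0.00297), without wt mouse 4 (0.00883) and without AGAT-/- mouse 6 (0.0372), but in none of the other 9 alternative fits that kept all 10 mice. None of the 9 let-7 and mir-98 rows passed in edgeR, DESeq2 or limma-voom, with a median of 0.03, and mir-98-3p was the only one with an unadjusted p below 0.05. In the mir-30 family, with 5 rows and a median of 0.24, mir-30b-3p was at 0.24 and mir-30d-5p at 0.44 on the log2 scale.

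No marker of another cell type passed the FDR, but few of them could be tested. Rows of endothelium and smooth muscle (9 tested), red blood cells (4), leukocytes (8) and neurons (1) gave no call in edgeR's test and no unadjusted p below 0.05, nor a call in DESeq2 or limma-voom, with medians of -0.19, 0.01, -0.06 and -0.43. The neuronal value is that of mir-128-1-5p (SE 0.23, FDR = 0.560, edgeR). The summed level of the red blood cell rows was between 6336 and 7779 CPM in wt and between 6297 and 7893 CPM in AGAT-/- mice, and that of the leukocyte rows between 6116 and 7758 and between 5864 and 8007 CPM. Of the epithelial miRNAs 3 rows were tested, all above 0, as were 46.4% of all miRNAs, and none past the FDR. Mir-182-5p was at 0.37 (SE 0.15, unadjusted p = 0.0259, FDR = 0.364, edgeR) and mir-429-3p at 0.34 (SE 0.19, FDR = 0.560, edgeR), where the median size at their depth was 0.11 and 0.17 respectively; their summed level was between 401 and 622 CPM in wt and between 484 and 692 CPM in AGAT-/- mice. The defining strands mir-451a-5p of red blood cells and mir-122-5p of liver were listed at 0. The part of other cell types in the 12 differences was not tested.

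Several large families gave no call. None passed among 4 rows of the mir-378 family, 9 of the mir-17-92 clusters, 11 of the mir-322 and mir-503 cluster and 6 of mir-15 and mir-16, with medians of -0.06, 0.04, -0.12 and -0.04. Only mir-378a-3p of these had an unadjusted p below 0.05, and neither DESeq2 nor limma-voom called any of them. Of 4 rows of mir-99, mir-100 and mir-125 (median -0.12) none passed in edgeR's test, and mir-125b-2-3p was called in the alternative fits counted above. In the mir-130 and mir-301 family 1 of 4 rows passed, and in mir-31 1 of 2, against 12 of all 562 miRNAs (2.14%). As the lists were chosen with earlier results of these data known, these shares are no result about the families.

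The position of the 12 relative to the deleted gene was also measured. Gatm lies at chr2:122594467-122611303 on the minus strand, and on chromosome 2, 97 miRNAs were tested and 2 passed (2.06%, against 2.14% of all). These were mir-130a-5p at 37.9 Mb and mir-298-5p at 51.7 Mb from Gatm. The tested miRNAs nearest to Gatm, mir-3473g-3p at 4.29 Mb and both strands of mir-674 at 5.41 Mb, had log2 fold changes of 0.78, 0.14 (3p) and 0.26 (5p) and did not pass (FDR of at least 0.422, edgeR). On chromosome X, 4 of 61 passed (6.56%), all within the stretch around mir-871, and the median of the chromosome was -0.04. Of these 4, mir-871-5p was tested only because of its AGAT-/- reads.

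Animal numbers in the labels ran higher in AGAT-/- mice than in wt mice, so that genotype and animal number partly coincide. AGAT-/- mice 7 to 10 had higher numbers than every wt mouse, while the number of AGAT-/- mouse 6 fell among those of the wt mice. Since the 12 miRNAs were called with this mouse among the AGAT-/- mice, its values are no separate test of genotype against animal number. What the numbers stand for is not given in the sources used here.

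The AGAT-/-hArg mice are given beside both groups, on CPM scaled over all 15 libraries. As they alone were run on lane 2, supplement and lane cannot be told apart. The 12 miRNAs were called against the same wt mice, so their values in AGAT-/-hArg mice are a description. For mir-298-5p, wt mice averaged 290 ± 57.9 CPM, AGAT-/- mice 590 ± 157 CPM and AGAT-/-hArg mice 431 ± 107 CPM. Mir-1966-3p was at 5.57 ± 3.25, 17.9 ± 4.26 and 7.01 ± 3.13 CPM and mir-871-3p at 49.1 ± 27.0, 147 ± 38.2 and 133 ± 70.9 CPM in the same order. On the X-linked stretch AGAT-/-hArg mice 11 to 15 had 102, 113, 96, 191 and 186 reads, each more than any wt mouse.

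The study's full list of miRNAs regulated between these groups was drawn from these libraries and is not independent evidence of a difference. The study also measured some members of the list by qPCR, and those measurements were not analysed here. Of its members, 29 were examined here and the rest were not analysed here. In the counts used, 11 of the 29 were at 0 in the 10 libraries, 2 had too few reads and 16 were tested, of which 9 passed the FDR (6 higher, 3 lower). Of the 16, only mir-100-5p was not described above, at a log2 fold change of -0.28 (SE 0.37, FDR = 0.896, edgeR).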

How the data were processed

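Small RNA libraries (TruSeq, HiSeq 2500) were made from total RNA of LV tissue. The authors mapped reads to the miRBase set of mouse miRNAs with the CLC Genomics Workbench and deposited raw counts of reads for each mature miRNA, not normalized. The submitters' processing notes name GRCm38; the miRBase release, mismatches and the handling of reads that fit several miRNAs are not given in the sources used here. No column of another sample was present (0).

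Rows whose reads added up to more than 10 in the 10 libraries were scaled by TMM and tested with edgeR 4.0.16 (quasi-likelihood test, R 4.3.3) between AGAT-/- and wt, without covariates, at a Benjamini-Hochberg FDR of at most 0.05 over all 562 rows. The study's methods name DESeq2, here the alternative (1.42.0), as was limma-voom (3.58.1); the closing section gives the others. CPM had no prior count added, and log2 fold changes in edgeR were those of the fit at its default prior count. Strand ratios were compared with exact permutation tests (R 4.3.3). Rate ratios at 1 to 3 reads have exact (Clopper-Pearson) intervals. Libraries of the same group differed by more than counting error (chi-square divided by its degrees of freedom from 2.53 to 16.8 in 20 pairs), so each mouse counted once; the biological coefficient of variation was 16.8%. Precursors were placed with GENCODE M21, which held 536 of the 562 rows (95.4%), and 404 (71.9%) matched a RefSeq mature sequence (GRCm38.p6).

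The fit was tested on simulated data for this comparison: of 187 miRNAs changed by 2-fold among 528 tested, 43.9% were recovered (84.8% among the 79 averaging over 10 reads), and 2.38% of calls were false. As the number of changed miRNAs was set in the simulation, neither its shares recovered nor its share of false calls need hold for the mice. Members and lists were chosen with earlier results of these data known. Named miRNAs are those past the FDR, their other strands, the 10 with the next lowest p, members of the study's list of regulated miRNAs that could be tested, the 5 most abundant and, per list, the 3 rows with most reads and those with an unadjusted p of at most 0.05; others were named after their values were seen. Some miRNAs were not analysed here.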

Additional observations from a re-analysis of the deposited data

Results flagged for a closer look

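In 3 of 43 groups of 5 mice, over the 22 miRNAs examined, 1 mouse stood apart from the other 4 of its group; a gap of that size arises by chance in about 1 of 20 groups. Mir-5119-3p was at 686 CPM in wt mouse 5, against 114 to 253 CPM in the other wt mice, and at 29.5 CPM in AGAT-/- mouse 8, against 2.04 to 9.36 CPM in the other AGAT-/- mice. Mir-210-5p was at 255 CPM in wt mouse 2, against 266 to 269 CPM in the other wt mice.

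AGAT-/-hArg mice entered no test. All 5 of them lay outside the range of the wt mice for 22 of the 562 miRNAs (3.91%), 6 of which were among the 12; as the 12 were called against the same wt mice, this is a description. Mir-5119-3p was at 11.9 ± 14.4 CPM in AGAT-/-hArg mice against 289 ± 236 CPM in wt mice (SD, n = 5 each, scaled over 15 libraries), mir-215-5p at 1782 ± 216 against 2726 ± 81.4 CPM and mir-1983-3p at 145 ± 27.3 against 368 ± 91.6 CPM. Above wt were mir-470-5p at 70.2 ± 37.7 CPM against 7.45 to 41.2 CPM in the wt mice, mir-31-5p at 1591 ± 141 against 1160 ± 104 CPM and mir-871-5p at 10.2 ± 6.16 against 0.94 ± 1.29 CPM, with between 2 and 8 reads per AGAT-/-hArg library. These differences were not tested, and lane 2 and the supplement cannot be told apart.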

How the results depend on the processing

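The count of 12 miRNAs past the FDR was between 8 and 18 over the other fits of all 10 mice, and leaving out each mouse gave 8 to 17. The number higher in AGAT-/- mice was 14 with total counts, 15 with at least 1 read summed and 5 at an FDR of at most 0.01, and between 5 (without wt mouse 2) and 14 (without AGAT-/- mouse 6) with each mouse left out. The number lower was 2 with more than 10 reads in every library and 3 in the other fits of all 10 mice, and between 3 and 5 (without AGAT-/- mouse 7) with each mouse left out. With more than 10 reads in every library 179 miRNAs were tested and 8 passed. With the animal number as a covariate 9 passed, 6 of them among the 12; the others were mir-3470a-5p, mir-3470b-5p and mir-712-5p. DESeq2 called 14, of which 11 were among the 12, and lost mir-1966-3p (FDR = 0.098). No log2 fold change of the 22 miRNAs examined changed sign in any of these fits. The difference in strand ratio of mir-31 was between -0.13 and 0.34 with each mouse left out, below 0 without wt mouse 1 (-0.01), 4 (-0.04) or 5 (-0.13) or AGAT-/- mouse 9 (-0.09). That of mir-130a was between 0.40 and 0.63, with the highest value without wt mouse 3 (adjusted exact permutation p = 0.0317). As mir-130a was chosen by its call in the same mice, this p-value is a description. The causes were not tested. No paired analysis was possible because wt mice carry the numbers 1 to 5 and AGAT-/- mice 6 to 10. Depth limits the rows with a mean of at most 10 reads per library, 334 of the 562 tested.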
